A study of Sus scrofa with 6 samples.

Results

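Small RNA of the jejunum was compared between 1 library of weaned piglets, W7, and 1 library of suckling piglets, S7, which are 2 of the 6 libraries of a study of weaning. The piglets were barrows of the cross Duroc x Yorkshire x Landrace. W7 came from piglets separated from the sow at 25 d of age and sampled 7 d later, and S7 from piglets of these litters left with the sow until sampling at 32 d of age, so both groups had the same age. After weaning the piglets ate a commercial diet, and before it all had pre-starter feed beside the milk. Each library was made from equal amounts of total RNA of 4 piglets, and the weaned piglets were 1 from each of 4 litters. A pool gives 1 value, so the ratio of W7 to S7 has no replicate check. The other suckling pools, S1 (26 d of age) and S4 (29 d), were used where a measure of the spread between pools was needed. In S7 the counts summed to 5373146 and in W7 to 4441416. The sum of S7 is larger than the number of clean reads the paper gives for that library. Some reads therefore appear to have been counted under more than 1 sequence, and shares and sums below are of counts, not of distinct reads. The files held 533 sequences of mature miRNAs and candidates, of which 504 had a read in W7 or S7. The 237 sequences with at least 50 reads in the pair were compared: 198 known miRNAs, 38 candidates predicted in the study and 1 sequence without a name. The other 267 sequences had 2591 reads in the pair together.

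A mature miRNA is a short RNA cut from a hairpin precursor, and either arm of the hairpin (5p or 3p) can be loaded into an Argonaute protein. It pairs with messenger RNAs mainly through its seed, bases 2 to 8, and lowers their stability or translation. miRNAs with the same seed can therefore bind overlapping sets of messengers, and miRNAs whose precursors lie side by side are often cut from 1 transcript. In the small intestine miR-192, miR-194 and miR-215 mark the epithelium, where HNF1 and CDX2 drive enterocyte genes, whereas miR-143 and miR-145 mark smooth muscle and other stromal cells. At weaning the gut passes from milk to solid feed, and villus shortening and a passing inflammation of the mucosa are well known in piglets.

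The sequences below carry the differences described here. They are written 5′ to 3′ as in the deposited files, with the seed in capitals. Members of a pair or trio with the same capitals share a seed.

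miR-192: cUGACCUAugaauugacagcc
miR-215: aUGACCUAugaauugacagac
miR-194a: uGUAACAGcaacuccaugugg
miR-194b-5p: uGUAACAGcgacuccaugugga
miR-143-3p: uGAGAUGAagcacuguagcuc
miR-146a-5p: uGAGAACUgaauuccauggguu
miR-146b: uGAGAACUgaauuccauaggc
miR-92a-1: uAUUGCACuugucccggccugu
miR-92b-3p: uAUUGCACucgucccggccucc
miR-32: uAUUGCACauuacuaaguugc
miR-19a: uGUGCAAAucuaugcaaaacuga
miR-19b: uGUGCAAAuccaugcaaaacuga
miR-450a: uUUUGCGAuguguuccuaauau
miR-450c-5p: uUUUGCGAuguguuccuaauac
SSC6_13802: uGUGUGUGggcgccggacgcc
SSC9_17641: cCAUCUGUgggauuaugacuga
SSC13_1737: uGUAGCUGuggcauagaccucag

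Relative to all counted miRNAs, the weaned pool W7 had less miR-192, miR-215 and miR-194, which mark epithelium, than the suckling pool S7. It had more miR-143-3p and miR-146b. With counts scaled to the library total (CPM, counts per 1000000), 16 of the 237 sequences were higher in W7 by at least 2-fold (6.75%) and 9 were lower by as much (3.8%). Among these were 7 known miRNAs and 9 candidates that were higher, and 8 known miRNAs and 1 candidate that were lower. The median log2 ratio of all 237 was 0.21, not 0. miR-143-3p, miR-192 and miR-215 took 67.5% of the counts of S7 and 62.2% of those of W7, so a change in any of them moves the CPM of every other miRNA. TMM scaling, which leaves extreme miRNAs out of the scale factor, lowered every log2 ratio by 0.24 and brought the median to -0.03. It gave 8 sequences higher by at least 2-fold (3.38%) and 17 lower by as much (7.17%). The 8 higher sequences all passed by library total too, and the 9 lower by library total all passed by TMM. The sign of the ratio differed between the scalings for 64 sequences, all with a log2 ratio of at most 0.24 by library total. A 95% interval is given in parentheses after a log2 ratio. It covers the error of counting reads only, not the spread between piglets or pools, and reads amplified by PCR are not independent molecules.

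**Figure D1:**
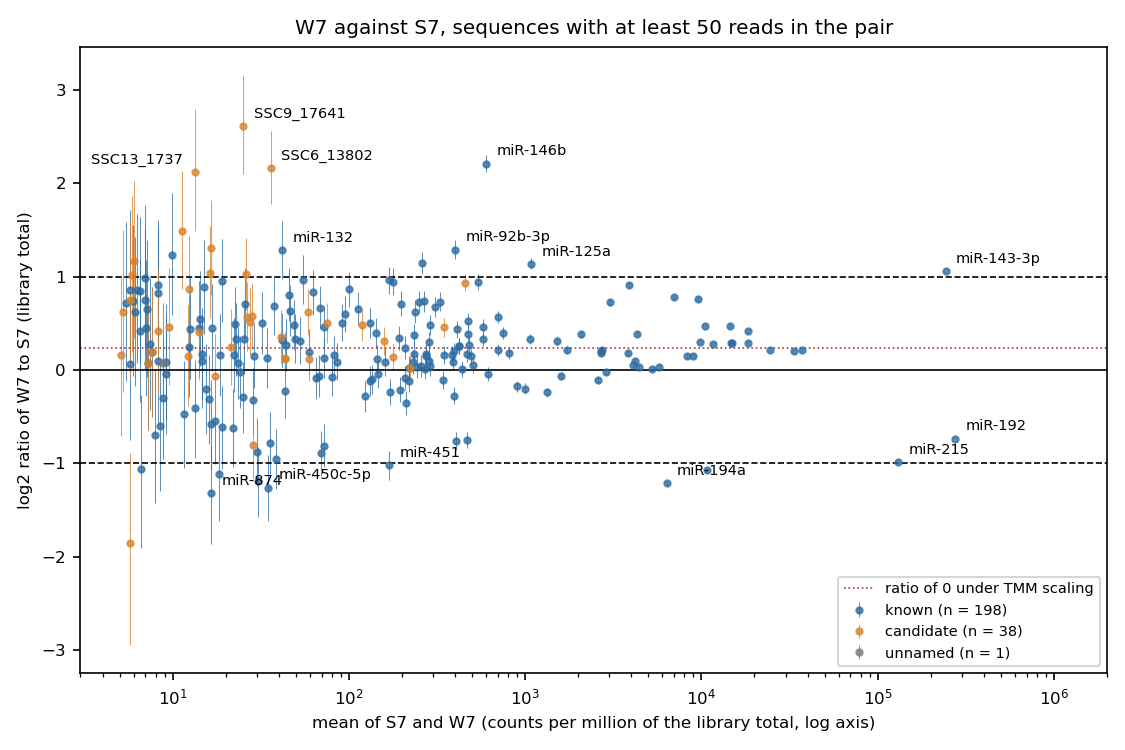
Log2 ratio of W7 to S7 by library total (y axis) against the mean of both libraries in CPM (x axis, log scale) for the 237 sequences. Vertical bars are 95% counting intervals, dashed lines mark 2-fold, and the dotted line marks equality under TMM scaling. miR-143-3p lies above and miR-192, miR-215 and miR-194a below 0 at the abundant end, and of the 5 highest ratios only that of miR-146b belongs to a sequence above 100 CPM.

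The epithelial miRNAs of the miR-192, miR-194 and miR-215 clusters were lower in W7, by both scalings. miR-192, the most abundant miRNA of S7, had 1852880 reads there (344841 CPM) and 920398 in W7 (207231 CPM), a log2 ratio of -0.73 (-0.74 to -0.73; -0.97 by TMM). miR-215, which shares its seed, had 929326 reads in S7 and 386533 in W7, a log2 ratio of -0.99 (-0.996 to -0.985; -1.23 by TMM). The pair cannot be fully separated, as 88.6% of miR-215 reads in the alignment rows examined aligned to miR-192 too. Summed over both, where shared reads can count in each, the log2 ratio was -0.82. miR-194a had 47705 reads in S7 and 17009 in W7, 2.32-fold lower. miR-194b-5p had 78043 reads in S7 and 30787 in W7, 2.10-fold lower. Reads of this pair overlap as well (74.1% of miR-194a reads), and their sum had a log2 ratio of -1.12 (-1.14 to -1.11). miR-194b-3p, from the opposite arm of the miR-194b hairpin and with a different seed, had 494 reads in S7 and 233 in W7, a log2 ratio of -0.81 (-1.04 to -0.58). The genes lie in pairs, miR-192 with miR-194a and miR-215 with miR-194b, and all members of both pairs were lower in W7. miR-429 did not follow. It belongs to the miR-200 family, which keeps epithelial cells from a mesenchymal state, and had 7218 reads in S7 and 7421 in W7, a log2 ratio of 0.31 by library total and 0.07 by TMM. Of 11 listed epithelial names, 6 were measured, with 2 of the 6 at least 2-fold lower by library total and 4 by TMM, and a median of -0.90 beside 0.21 for all sequences. No sequence used here was matched to miR-141, miR-375 or the other members of the miR-200 family.

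W7 also lay below every suckling pool for these miRNAs by TMM, as it did for 72 of 237 sequences (30.4%). On a TMM scale over the 4 libraries, miR-192 was at 376128, 373890 and 342993 CPM in S1, S4 and S7 and at 174552 in W7. miR-194a was at 10742, 8891 and 8831 CPM in the suckling pools and at 3226 in W7. The suckling values lay close together and W7 stood apart from them. miR-429, by comparison, was at 1526, 1500, 1336 and 1407 CPM in S1, S4, S7 and W7, within the suckling range. When W7 was tested against S1, S4 and S7 with edgeR's quasi-likelihood test over 289 sequences, with the spread taken from the suckling pools and W7 assumed to vary like them, 4 sequences were called lower (1.38%) and 1 higher (0.346%) at an adjusted p under 0.05. The lower ones were miR-192 (log2 fold change -1.05), miR-194b-5p (-1.40), miR-194a (-1.54) and miR-215 (-1.43), and the higher one was SSC6_13802 (2.18), each with an adjusted p of 0.0328. At an unadjusted p under 0.05, 28 were higher and 28 lower. DESeq2 called 10 higher and 15 lower. The count depends on single pools: without S1 or without S4 edgeR called 0 higher and 0 lower (lowest adjusted p 0.108 in each), and without S7 it called 31 higher and 37 lower. A fit without a pool leaves 1 residual degree of freedom, and S1 and S4 were younger than W7.

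**Figure D2:**
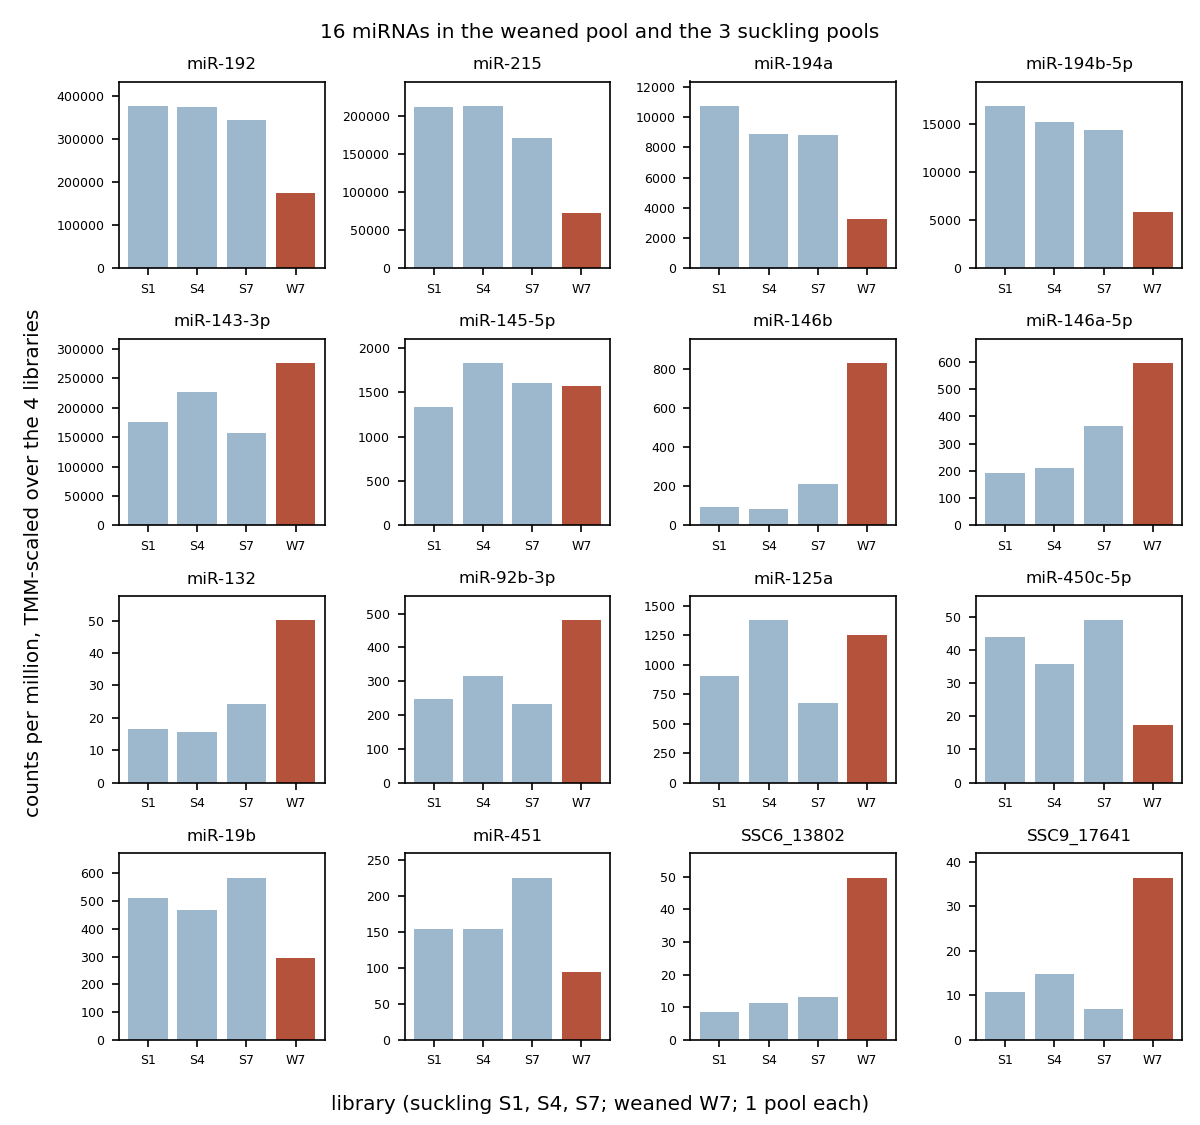
Level of 16 miRNAs in CPM, TMM-scaled over the 4 libraries (y axis, from 0), in the suckling pools S1, S4 and S7 and the weaned pool W7 (x axis); each bar is 1 pool, so there is no error bar. W7 stands below the 3 suckling pools for miR-192, miR-215, miR-194a and miR-194b-5p and above them for miR-146b, miR-132 and SSC6_13802, whereas miR-125a in W7 lies between S1 and S4.

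Of the stromal miRNAs, miR-143-3p alone was at least 2-fold higher by library total. It had 845237 reads in S7 and 1456066 in W7, and its share of all counts was 15.7% in S7 and 32.8% in W7, which made it the most abundant miRNA of the weaned library. Its log2 ratio was 1.06 (1.06 to 1.06) by library total and 0.82 by TMM, under 2-fold by the second scaling. On the 4-library TMM scale it was at 175615, 227131 and 156465 CPM in S1, S4 and S7 and at 276141 in W7. W7 was the highest, 1.76-fold above S7 but nearer to S4, and edgeR gave it an adjusted p of 0.217 against the suckling pools. By library total edgeR gave 0.0174, a call, and DESeq2 gave 0.256. miR-145, cut from the same transcript and likewise a regulator of smooth muscle differentiation, did not change to that extent. miR-145-5p had a log2 ratio of 0.21 by library total and -0.03 by TMM, miR-145-3p of 0.48 and 0.24, and the passenger arm miR-143-5p of 0.50 and 0.26. The counts of miR-192 per count of miR-143-3p were 2.14, 1.65 and 2.19 in S1, S4 and S7 and 0.632 in W7. This ratio needs no scaling, and in W7 it lay below its range in the 3 suckling pools. Its members already differed in opposite directions between W7 and S7, so it is no separate support. How many other pairs would set W7 apart in this way was not tested.

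The epithelial and stromal marker lists hold the miRNAs described above, so their sums restate those differences and are no separate support. A smaller share of epithelial cells in a pool cannot be told apart from less of these miRNAs per cell. The summed CPM of the 6 measured epithelial miRNAs by library total was 542637 to 579081 in the suckling pools and 306745 in W7. For the 4 arms of miR-143 and miR-145 it was 159187 to 204817 in the suckling pools and 330076 in W7, nearly all of it miR-143-3p. The muscle miRNAs miR-1, miR-133a-3p and miR-133b had log2 ratios of 0.88, 0.73 and 0.71 by library total and of 0.64, 0.49 and 0.47 by TMM. W7 was above the suckling pools for miR-1 on the 4-library TMM scale but within their range for miR-133a-3p and miR-133b, and for both of these S7 was the lowest suckling pool. miR-499-5p, best known from slow and cardiac muscle, went the other way with 53 reads in S7 and 27 in W7 (-0.70, -1.42 to -0.00). Mesenchymal miR-199a, miR-199b and miR-214 stayed at the median of all sequences, with 5 measured, none past 2-fold and a median of 0.21. The endothelial miR-126 arms were at 0.01 (5p) and 0.33 (3p). Traces of other organs were low: miR-122 of liver had 62 reads in S7 and 75 in W7, and miR-216 of pancreas 10 and 16. The part of these markers in any ratio was not tested.

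Of the miRNAs linked to inflammation, miR-146b and miR-132 were at least 2-fold higher in W7. miR-146b is induced by NF-kB and dampens signalling through TRAF6 and IRAK1, and had 1146 reads in S7 and 4384 in W7, a 4.63-fold difference with a log2 ratio of 2.21 (2.12 to 2.31; 1.97 by TMM). The suckling pools themselves were not level: on the 4-library TMM scale miR-146b was at 94.2, 81.8 and 212 CPM in S1, S4 and S7, and at 831 in W7. S7 was the highest of the 3 suckling pools, and W7 was still far above it. miR-146a-5p, with the same seed from a gene on another chromosome, had 1975 reads in S7 and 3135 in W7, a log2 ratio of 0.94 (0.86 to 1.02). Reads of the pair are separable, as 0 of 297 miR-146b reads in the alignment rows used also aligned to miR-146a. There were 0.492, 0.390 and 0.580 reads of miR-146b per read of miR-146a-5p in S1, S4 and S7, and 1.40 in W7, so the order of the pair was inverted in the weaned pool. Summed over the sequences with this seed, the log2 ratio was 1.54 (1.48 to 1.60; 1.30 by TMM), the only seed of 34 with 2 or more measured members whose sum was at least 2-fold higher.

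miR-132, which is induced by CREB and in monocytes and lymphatic endothelium by infection, had 131 reads in S7 and 264 in W7, a log2 ratio of 1.29 (0.98 to 1.60; 1.05 by TMM). miR-222 and miR-155-5p, the latter induced in activated leukocytes, had log2 ratios of 0.62 and 0.60 by library total. miR-221-3p, the main arm of miR-221, had 1766 reads in S7 and 1627 in W7, a log2 ratio of 0.16 by library total and -0.08 by TMM, and W7 was within the suckling range. Its minor arm miR-221-5p, a less sure name, had 70 and 112 reads (0.95, 0.51 to 1.40). miR-21, the most abundant of the list with 122184 reads in S7 and 117301 in W7, was at 0.22, the same as the median of all sequences. Of 9 listed miRNAs, 8 were measured, with 2 at least 2-fold higher under both scalings, none lower and a median of 0.78 by library total and 0.54 by TMM. W7 lay above all 3 suckling pools for 6 of the 8 on the TMM scale, where 78 of 237 sequences did so (32.9%). Against the suckling pools edgeR gave miR-146b a log2 fold change of 2.70 (adjusted p = 0.0881) and miR-132 one of 1.42 (adjusted p = 0.0974), so neither was called. The call depends on the tool and scaling: by library total edgeR gave them adjusted p values of 0.0174 and 0.0331, and DESeq2 gave 5.82e-05 and 0.0210. Leukocyte miRNAs differed less. miR-150 of mature lymphocytes had 380 reads in S7 and 571 in W7 (0.86, 0.67 to 1.05), whereas miR-142-5p was at 0.39, miR-142-3p at 0.01 and miR-342 at 0.19. The summed CPM of the 4 measured leukocyte miRNAs was 2389 to 4152 in the suckling pools and 5381 in W7. That is by library total, where W7 was above all suckling pools for 160 of 237 sequences. By TMM W7 was above them for miR-150 and miR-142-5p and within their range for miR-142-3p and miR-342. The part of leukocyte miRNAs in the ratios of the inflammation list was not tested.

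Candidate miRNAs supplied the highest ratio and 9 of the 16 that were at least 2-fold higher by library total, although they made up 0.194% of the counts of S7 and 0.278% of those of W7. SSC9_17641, a candidate of chromosome 9 whose seed was matched to no known miRNA, had 38 reads in S7 and 192 in W7, a log2 ratio of 2.61 (2.10 to 3.15; 2.37 by TMM). On the 4-library TMM scale it was at 10.7, 14.8 and 7.03 CPM in the suckling pools and at 36.4 in W7. SSC6_13802, of chromosome 6, had 71 reads in S7 and 262 in W7, a log2 ratio of 2.16 (1.78 to 2.56; 1.92 by TMM). Its suckling values of 8.54, 11.4 and 13.1 CPM lay close together and W7 was at 49.7, and this was the 1 sequence edgeR called higher. SSC13_1737, of chromosome 13, had 27 reads in S7 and 97 in W7, a log2 ratio of 2.12 (1.49 to 2.79). SSCM_18120, the candidate of the mitochondrial genome, had 51 reads in S7 and 104 in W7 (1.30, 0.81 to 1.82).

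Some candidate ratios rested on an S7 value unlike the other suckling pools. SSC18_5778 and SSC18_5981, which are 1 sequence at 2 candidate precursors, had 190, 123 and 32 reads in S1, S4 and S7 and 74 in W7. The log2 ratio to S7 was 1.48 (0.87 to 2.13), but W7 was lower than S1 and S4. SSC7_16050 behaved alike, with 218, 182 and 57 reads in the suckling pools and 97 in W7, and a ratio to S7 of 1.04. SSCX_18135 and SSCX_18482, again 1 sequence, had the lowest ratio of all at -1.85 (-2.95 to -0.89), with 48 reads in S7 and 11 in W7. In S1 it had 4 reads and in S4 109, so the suckling pools spread more widely than W7 and S7 differed. A candidate sequence need not be a miRNA, and the counts do not show whether these RNAs are loaded into Argonaute.

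Most seed families spanned less than 1 log2 unit, as did most pairs over all sequences. In 34 seed families with 2 or more measured members, 94 sequences in all, the members lay within 1 log2 unit of each other in all but 3 families. Of the 120 pairs with the same seed, 95.8% lay within 1 log2 unit, beside 78.8% of all pairs of the 237 sequences. Some families share reads, so their members are not independent. The 3 families were miR-146, miR-29 and that of miR-92. In the latter, miR-92b-3p had 1254 reads in S7 and 2531 in W7, a log2 ratio of 1.29 (1.19 to 1.39; 1.05 by TMM), miR-92a-1 was at 0.78 (0.76 to 0.80) and miR-363 at 0.50 (0.34 to 0.67). miR-32, with the same seed, had 241 reads in S7 and 116 in W7, a log2 ratio of -0.78 (-1.11 to -0.45; -1.02 by TMM). These intervals do not overlap, and the sign of miR-92b-3p and of miR-32 was the same under both scalings. On the 4-library TMM scale miR-32 was at 46.3, 41.9 and 44.6 CPM in the suckling pools and at 22.0 in W7, below a narrow range. miR-92b-3p was at 248, 315 and 232 CPM in these pools and at 480 in W7, above them. On this scale W7 lay below all suckling pools for 30.4% of the 237 sequences and above them for 32.9%. As miR-92a-1 held most of the family's reads, the sum over the seed was higher in W7, at 0.79. In the miR-29 family, which targets collagen messengers, miR-29c was at 0.74 and miR-29b at -0.29 (-0.67 to 0.08), and W7 was within the suckling range for miR-29b.

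Seed sums that were lower in W7 came from few families. The sum of miR-450a and miR-450c-5p was lowest, with 491 reads in S7 and 173 in W7, a log2 ratio of -1.23 (-1.49 to -0.98). It was followed by miR-194 (-1.12), miR-192 with miR-215 (-0.82) and miR-19a with miR-19b (-0.76, -0.82 to -0.69). By library total 2 of the 34 sums were at least 2-fold lower and by TMM 3. Of the other abundant families, let-7, miR-10 and miR-30 stayed near the median of all sequences. The 9 sequences with the let-7 seed, which restrain proliferation, went from 165435 to 147572 reads, a log2 ratio of 0.11 by library total and -0.13 by TMM. For miR-10a-5p and miR-10b, expressed from the HOX clusters, the sum was at 0.21 and -0.03, and for the 5 members of the miR-30 seed at 0.28 and 0.04. The miR-181 seed, of which miR-181a tunes antigen receptor signalling in T cells, was higher under both scalings, with 46160 reads in S7 and 62233 in W7 (0.71, 0.69 to 0.72; 0.47 by TMM). W7 was above all suckling pools for the 4 measured miR-181 sequences on both scales. For let-7 the place of W7 turned with the scale: it was below all suckling pools for 8 of the 9 by TMM and above them for 7 of the 9 by library total. Over all 237 sequences W7 was above the suckling pools for 32.9% and below them for 30.4% by TMM. By library total it was above them for 160 of the 237 and below them for 28, so a place above the pools was common on that scale.

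**Figure D3:**
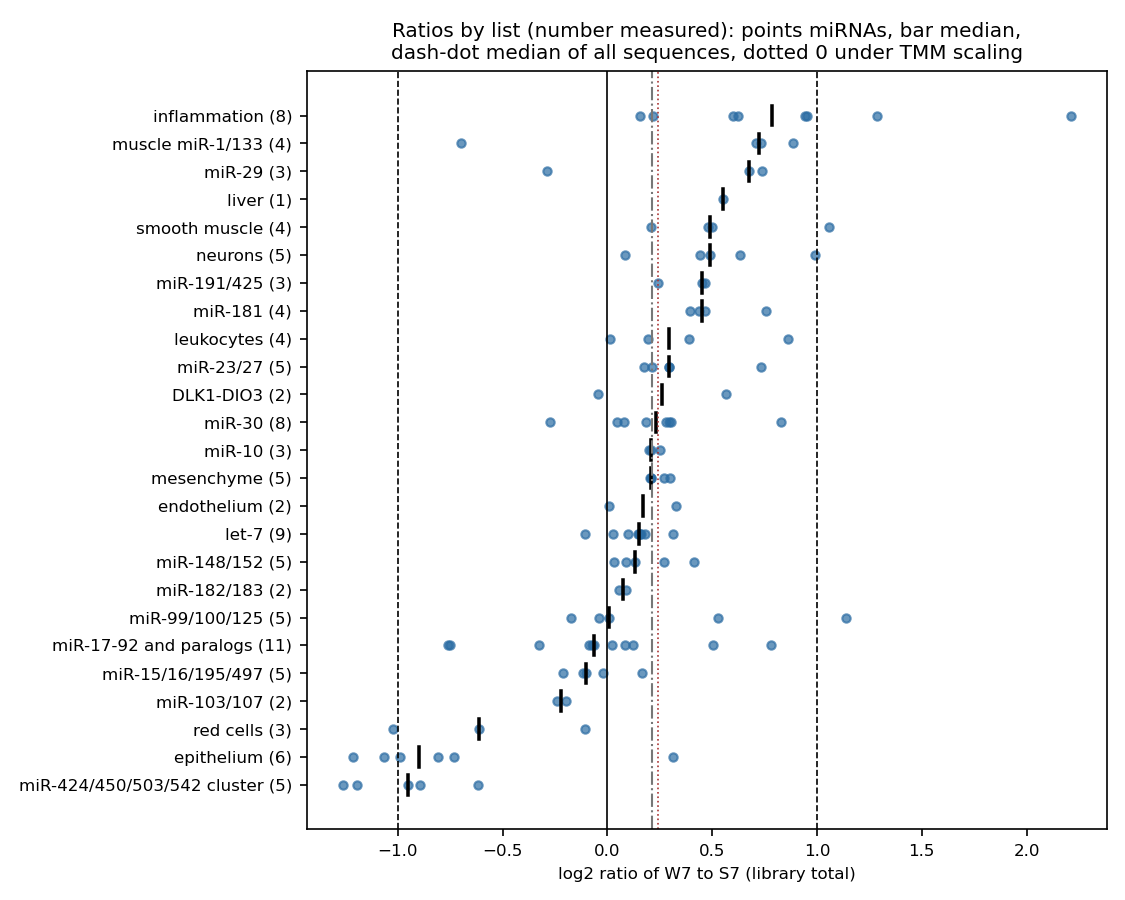
Log2 ratio of W7 to S7 by library total (x axis) for the measured members of 25 lists of marker miRNAs, families and clusters (y axis, number measured in parentheses). Each point is 1 miRNA and the short bar is the median of the list; the dash-dot line is the median of all 237 sequences (0.21), the dotted line equality under TMM scaling and the dashed lines 2-fold. The epithelial list and the cluster of miR-424 and miR-450 have the lowest medians (-0.90 and -0.95) and the inflammation list the highest (0.78).

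Neighbouring precursors gave a second view of the same ratios. Of 180 precursors of measured known miRNAs, 162 were found in the RefSeq annotation of Sscrofa11.1, which served only to tell which genes lie within 10 kb of each other. In 25 of 29 such groups the measured miRNAs lay within 1 log2 unit, and so did 91.8% of the 98 pairs of neighbours, beside the 78.8% of all pairs. In the miR-450 group of the X chromosome, which is known from muscle differentiation and cell cycle exit, miR-450c-5p (-1.26, -1.62 to -0.91), miR-450a (-1.19), miR-542-3p (-0.95) and miR-450b-5p (-0.89, -1.13 to -0.66) were all lower in W7. miR-424-5p, from the same region and with the miR-16 seed, was at -0.62 (-1.04 to -0.21). Their counts were small, from 143 reads in S7 and 77 in W7 for miR-424-5p to 483 and 215 for miR-450b-5p, and 100% of the miR-450a reads examined also aligned to miR-450c. W7 lay below all 3 suckling pools for the 5 measured, where 72 of 237 sequences did so (30.4%). For miR-450b-5p the suckling values were 99.7, 90.8 and 89.4 CPM and W7 was at 40.8, with a log2 fold change of -1.18 in edgeR (adjusted p = 0.0631), not called. By library total the adjusted p was 0.0938, whereas DESeq2 called miR-450b-5p (5.82e-05), miR-450a (0.00556) and miR-450c-5p (0.00702). miR-424-5p in W7 was within the suckling range by library total.

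The miR-17-92 cluster did not move as a unit. Its precursors share a transcript that MYC and E2F induce and that favours proliferation. miR-19a had 2724 reads in S7 and 1327 in W7 (-0.76, -0.86 to -0.67) and miR-19b 3160 and 1553 (-0.75, -0.84 to -0.66). miR-17-5p, miR-18a and miR-20a were at 0.02, -0.08 and -0.09, and miR-92a-1, from the 3′ end of the cluster, had 27602 and 39143 reads (0.78, 0.76 to 0.80). There were 8.73 reads of miR-92a-1 per read of miR-19b in S7 and 25.2 in W7, and 10.7 and 12.3 in S1 and S4. W7 lay above all suckling pools in this ratio, whose members already differed in opposite directions between W7 and S7. miR-92a and miR-19b are also made from a paralog cluster, and the reads do not tell the sources apart. By TMM 2 of the 11 measured members of miR-17-92 and its paralogs had a positive ratio and 9 a negative one, with a median of -0.31. The median of all 237 sequences was -0.03 on this scale, so a negative sign was common.

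The other groups with members over 1 log2 unit apart were miR-99b, let-7e and miR-125a, the pair of miR-374b and miR-421, and miR-29b with miR-29c. miR-125a, which in haematopoietic cells supports stem cell survival, had 3643 reads in S7 and 6620 in W7 (1.14, 1.08 to 1.20; 0.90 by TMM), against -0.18 (-0.24 to -0.11) for miR-99b and 0.10 for let-7e beside it. S7 was low for miR-125a, however. On the 4-library TMM scale it was at 902, 1377 and 674 CPM in S1, S4 and S7, and W7 with 1255 was within that range. miR-99b was at 974, 1531 and 953 CPM in the suckling pools and below them in W7, at 714. Per read of miR-99b there were 0.926, 0.899 and 0.708 reads of miR-125a in the suckling pools and 1.76 in W7. The ratio to miR-99b in W7 was thus above the suckling range, although the level of miR-125a was within it. Per read of let-7e there were 0.232, 0.337 and 0.167 reads of miR-125a in S1, S4 and S7 and 0.343 in W7. By this neighbour W7 was close to S4. miR-374b-5p had 134 reads in S7 and 51 in W7 (-1.12, -1.61 to -0.64), and its neighbour miR-421-3p was at 0.81 (0.53 to 1.09). Reads of miR-421-3p per read of miR-374b-5p were 2.69, 2.41 and 1.34 in S1, S4 and S7 and 5.08 in W7. These groups were picked for their distance between W7 and S7, so the ratios of neighbours are no separate support.

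**Figure D4:**
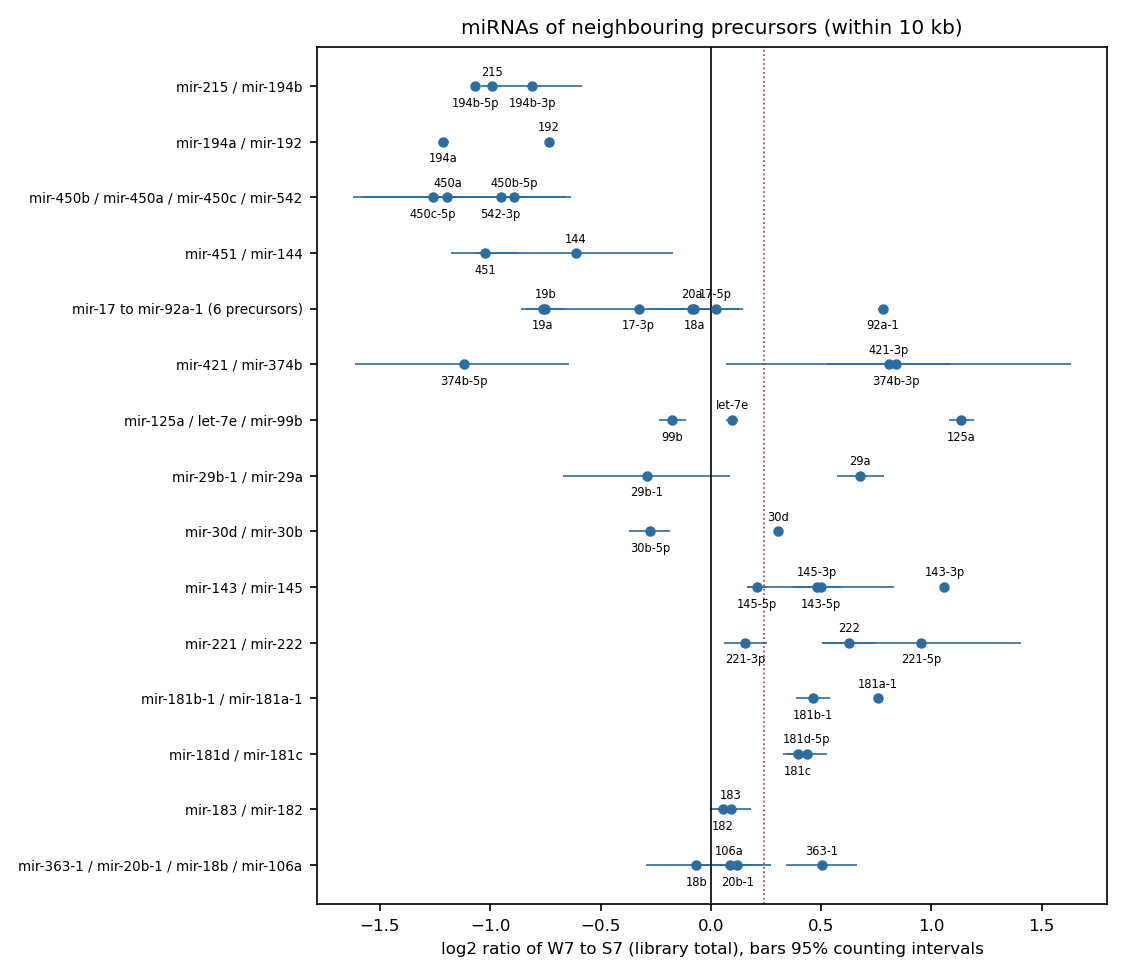
Log2 ratio of W7 to S7 by library total (x axis) for the measured miRNAs of 15 groups of neighbouring precursors (y axis); points are mature miRNAs named without their prefix, bars are 95% counting intervals and the dotted line marks equality under TMM scaling. The miR-215 and miR-194b, miR-192 and miR-194a, and miR-450 groups lie wholly below 0, whereas the miR-17-92, miR-421 and miR-374b, and miR-125a groups reach from below 0 to 0.78 or more.

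Among the remaining miRNAs with at least 100 reads at the ends of the ratios, miR-874 was lowest. It had 127 reads in S7 and 42 in W7 (-1.32, -1.86 to -0.81), and 26.3, 21.5 and 23.5 CPM in the suckling pools against 7.97 in W7 on the 4-library TMM scale. Its adjusted p was 0.0729 in edgeR and 0.00556 in DESeq2. miR-451, a red cell miRNA matured by Argonaute rather than Dicer, had 1219 reads in S7 and 496 in W7 (-1.02, -1.18 to -0.87). S7 was high for it, at 226 CPM beside 154 in S1 and in S4, and W7 was at 94.1, below all of them. miR-144, its neighbour, was at -0.61 and miR-486, the third red cell miRNA, at -0.11. The summed CPM of these red cell miRNAs by library total was 451 to 604 in the suckling pools and 455 in W7. On the 4-library TMM scale W7 was below all suckling pools for each of them, as it was for 72 of 237 sequences (30.4%). miR-423-5p had 865 reads in S7 and 1579 in W7 (1.14, 1.02 to 1.26; 0.90 by TMM), and on the 4-library TMM scale S7 was the lowest of the suckling pools, with 215, 248 and 160 CPM in S1, S4 and S7 and 299 in W7.

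One candidate, singled out after its value was seen, carries a known seed. SSC18_6061 (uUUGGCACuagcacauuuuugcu) was matched in the study to the seed of human miR-96-5p. In mammals miR-96 lies beside miR-182 and miR-183. It had 196 reads in S7 and 93 in W7 (-0.80, -1.17 to -0.44), whereas miR-182 was at 0.05 (0.03 to 0.08) and miR-183 at 0.09 (-0.00 to 0.18). On the 4-library TMM scale it was at 39.4, 49.3 and 36.3 CPM in the suckling pools and at 17.6 in W7. For miR-182, with 4073, 4127, 4002 and 3520 CPM, W7 lay below the suckling pools by a far smaller step.

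The arms of a hairpin kept their proportions in most precursors. For 41 precursors with both arms named and at least 50 reads in each library, the 5p share differed by over 10 percentage points in 2. Of miR-374b reads, 84.3% were from the 5p arm in S7 and 58.0% in W7, and the shares were 68.5% in S1 and 71.9% in S4, so part of this difference was a high S7. The other was miR-193a, with a 5p share of 7.76% in S7 (9 reads of that arm, Wilson 95% interval 4.14% to 14.1%) and 26.25% in W7 (21 reads, 17.9% to 36.8%). The suckling pools S1 and S4 had 12.8% and 11.1%, close to S7 and below W7. Both precursors had under 200 reads in each library, and none of the 33 precursors with at least 200 reads in both differed by over 10 points. No precursor had its main arm changed from S7 to W7.

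Sequences with reads in 1 of the libraries had low counts. Reads in W7 and none in S7 were found for 52 sequences, and the reverse for 42, while 410 had reads in both. Of these 94 sequences, 77 had 3 reads or fewer, and at such counts the rule for names of known miRNAs could seldom be met. The most reads among sequences found in W7 only were 16, for the candidate SSC3_9980 and SSC3_9982, and a count of 0 in S7 allows up to 3 reads, which puts W7 at least 5.46-fold higher by TMM and 6.45-fold by library total when its 16 reads are taken as exact. The same sequence had 5 reads in S1 and 20 in S4, so it was not particular to weaned jejunum. Among sequences found in S7 only the most reads were 6. At this depth, presence in 1 of these libraries was not distinguishable from low counts.

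More sequences passed 2-fold between W7 and S7 than between suckling pools. At least 2-fold differences were found for 25 of 237 sequences between W7 and S7 (10.5%), for 10 of 226 between S7 and S1 (4.42%), for 10 of 236 between S7 and S4 (4.24%) and for 8 of 231 between S4 and S1 (3.46%), all by library total. Between W7 and S1 it was 42 of 234 (17.9%), and between W7 and S4 41 of 241 (17.0%). On the 4-library TMM scale these 2 counts fell to 31 (13.2%) and 31 (12.9%), and that of W7 and S7 stayed at 25. The pairs of suckling pools were then at 10 (S7 and S1), 11 (S7 and S4) and 9 (S4 and S1). The standard deviation of the log2 ratios did not set W7 against S7 apart in this way. It was 0.601 for W7 against S7, 0.605 for S7 against S1, 0.475 for S7 against S4 and 0.514 for S4 against S1. For W7 against S1 and against S4 it was larger, at 0.797 and 0.729. These comparisons share libraries and hold 1 pair each. Base composition moved with the ratios. Across 198 known miRNAs, which share their libraries, the log2 ratio of W7 to S7 had a Pearson correlation of 0.26 and a Spearman correlation of 0.31 with the percentage of G and C. The Pearson value was -0.23 for S7 against S1, -0.32 for S7 against S4, and 0.10 and 0.03 for W7 against S1 and S4. The median log2 ratio of W7 to S7 was -0.05 for 47 miRNAs under 40% G and C, 0.21 for 75 from 40% to under 50%, 0.33 for 50 from 50% to under 60% and 0.37 for 26 from 60% upward. The part of base composition in single ratios was not tested, and with its linear trend removed 15 sequences were at least 2-fold higher and 7 lower.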

How the data were processed

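Total RNA of 4 piglets was pooled per library and small RNA of 15 to 32 nt was sequenced. The authors cleaned the reads, aligned them to the draft genome Sscrofa 9.2 with Bowtie (0.12.2, per the submitters' processing notes), matched them to miRBase 19.0 and predicted candidates. The deposited tables hold raw read counts per mature sequence. The step from alignments to these counts is not described in the sources read.

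Names came from the study's supplementary tables: candidates by identical sequence, known miRNAs by identical counts over the 6 libraries (20 reads or more in sum). Of 160 names with aligned reads, 24 shared under 15 nt with them, mostly minor arms (miR-221-5p, miR-17-3p, miR-143-5p and miR-1307 among them), so these names are less sure. miR-24 was left out because 2 sequences carry nearly its counts. The highest count was used for 54 repeated sequences.

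Ratios used library totals and TMM (edgeR 4.0.16, R 4.3.3), with exact conditional binomial intervals of 95% and no pseudocount (scipy). W7 and S7 have 1 library each, so no p-value was computed for them. W7 was compared with S1, S4 and S7 in edgeR (at least 10 reads in at least 2 libraries, TMM, Benjamini-Hochberg adjustment over 289 sequences, without a replicate in W7) and with DESeq2 1.42.0. Its p-values measure only the spread between these pools. miRNAs were named for the 10 highest and 10 lowest ratios from 100 pair reads upward, the 10 most abundant, members of 26 lists and precursors whose arm share differed by over 10 points. The members and lists were chosen with earlier results of these data known. Alternatives were other scalings, read minimums, folds and pools left out. G and C content and known miRNAs alone were added after seeing the data.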

Additional observations from a re-analysis of the deposited data

Results flagged for a closer look

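With 1 library per group, no sample was tested for standing apart from others of its group. A pair of sequences passed 2-fold at 7 d and passed it in the opposite direction on another day, and neither difference between days was tested.

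miR-374b-5p had a log2 ratio of -1.12 for W7 against S7 (134 reads in S7 and 51 in W7) and of 1.04 for W4 against S4 (82 reads in S4 and 143 in W4). The sequence shared by SSC18_5778 and SSC18_5981 had a log2 ratio of 1.48 for W7 against S7 (32 and 74 reads) and of -2.81 for W1 against S1 (190 reads in S1 and 28 in W1). Its suckling pools ranged from 32 to 190 reads. Each value rests on 1 pool.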

How the results depend on the processing

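No paired analysis was possible because each group holds 1 library. The number of sequences at least 2-fold higher in W7 was 16, and 8 with TMM, 8 with DESeq2 size factors, 9 with totals that leave out the 3 most abundant miRNAs, 30 from 20 reads in the pair, 72 with no minimum, 8 with the interval wholly beyond 2-fold, 57 at a fold of 1.5 and 7 among known miRNAs alone, the last chosen after seeing the data. The number lower was 9, and in the same order of settings 17, 19, 15, 12, 30, 2, 23 and 8. The median log2 ratio of 0.21 became -0.026 with TMM, -0.061 with DESeq2 size factors, -0.00405 without the 3 most abundant miRNAs, 0.076 with clean reads and 0.27 with no minimum. These scalings move every ratio by the same amount, so they change signs near 0 and not the order of miRNAs. None of the named miRNAs past 2-fold changed its sign under another scaling or with the mean of repeated rows.

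Against the suckling pools, edgeR's 1 higher and 4 lower calls became 10 and 15 with DESeq2 and 12 and 4 by library total. Leaving out S1, S4 or S7 in turn gave 0 to 31 higher and 0 to 37 lower. With an arm minimum of 200 reads 0 precursors differed by over 10 points. With the minimum of 50 reads 12 of the 41 precursors had Wilson intervals apart, counting error only. The number of sequences found in 1 of the libraries was 94, and 98.8 were expected with S7 thinned to the total of W7. W7 lay outside the suckling range for 150 sequences by TMM and 188 by library total. With 1 pool per group, the spread between pools, not depth, limits the abundant miRNAs, whereas depth limits those under 100 reads, whose intervals span over 1 log2 unit in many cases.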

Other observations

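miR-378, made from an intron of the PPARGC1B gene and linked to mitochondrial metabolism, had 14571 reads in S7 and 22623 in W7 for miR-378-1, a log2 ratio of 0.91 (0.88 to 0.94; 0.67 by TMM). On the 4-library TMM scale it was at 2554, 2429 and 2697 CPM in S1, S4 and S7 and at 4290 in W7, with an adjusted p of 0.0631 in edgeR, not called. By library total edgeR gave 0.0174 and DESeq2 gave 0.000146, both calls. The candidate SSCX_18747, matched to the same seed, had a log2 ratio of 0.93, but its 2802 reads in S1 exceeded the 2661 of W7. miR-130b had 650 reads in S7 and 1034 in W7 (0.94, 0.80 to 1.09), with 123, 118 and 120 CPM in the suckling pools and 196 in W7.

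Neuronal miRNAs, of which miR-9 and miR-138 are known from neurons of the brain, had a median log2 ratio of 0.49 by library total and 0.25 by TMM over the 5 measured, none past 2-fold. miR-9 had 194 reads in S7 and 249 in W7 (0.63, 0.36 to 0.91). Of 17 listed miRNAs of the imprinted DLK1-DIO3 region, 2 were measured, miR-127 at 0.57 (0.50 to 0.64) and miR-136 at -0.05 (-0.68 to 0.58). The measured members of the miR-15 and miR-16 family had a median of -0.10, miR-103 and miR-107 of -0.22, miR-23 and miR-27 of 0.29, miR-148 and miR-152 of 0.13 and miR-191 and miR-425 of 0.45, with none past 2-fold in any of these lists.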
